A study of Mus musculus with 4 samples.

Results

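Transcripts of 10 genes whose products are typical of the liver were followed in mouse kidney: Ttr, Serpina1a, Alb, Apoa1, Apoa2, Apoc3, Apob, Fabp1, Ahsg and Serpina3k. They are 10 of the 20656 gene symbols matched on the array and are covered by 13 of the 55668 probes analysed. Of these, 11 probes of 8 genes were bright enough to be retained, and Apoa1 and Serpina3k were not. The members are all non-control probes whose accession belongs to 1 of these genes, and the genes were picked with their differences between the groups already known, so those differences are given below as a description, with no test. BDL kidneys were taken 2 weeks after bile duct ligation (BDL), which ties off the bile duct and causes cholestasis, and the controls 2 weeks after a sham operation. Each group had 2 kidney RNA samples, called biological replicates in the series' design, each on an array of its own. Controls had thus been operated on too, and strain, sex, age and whether tissue was pooled are not given in the sources used here.

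In the liver these genes make the bulk of the plasma proteins, lipoprotein shells and carriers that hepatocytes release into the blood. In the kidney some of the corresponding plasma proteins arrive by filtration and are taken back up by proximal tubule cells through megalin and cubilin. Such a protein can be abundant in the tubule without its transcript. The list fits its name except for Fabp1, which encodes a cytosolic fatty acid binding protein that is not secreted by the classical route. Hepatocyte transcription of such genes is driven in large part by HNF4, FOXA and C/EBP factors, several of which the proximal tubule also expresses.

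The stretches upstream of 4 members are shown because they carry, or in Serpina1a lack, a short motif that resembles C/EBP sites. RefSeq promoter entries (GRCm38.p6) were found for 7 of the 10 genes. The 250 bases before the annotated start are printed 5′ to 3′ on the gene's strand for Alb, Serpina1a, Fabp1 and Ahsg. Capitals mark each match, on either strand, to TTGCNNAA, a loose form of a C/EBP site that is not itself a palindrome.
Alb, chr5:90460620-90460869, plus strand: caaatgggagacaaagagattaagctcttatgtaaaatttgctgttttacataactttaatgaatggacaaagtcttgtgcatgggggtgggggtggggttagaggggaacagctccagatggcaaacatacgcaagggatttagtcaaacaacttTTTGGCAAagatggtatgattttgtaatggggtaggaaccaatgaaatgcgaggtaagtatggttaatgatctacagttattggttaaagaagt
Serpina1a, chr12:103863620-103863869, minus strand: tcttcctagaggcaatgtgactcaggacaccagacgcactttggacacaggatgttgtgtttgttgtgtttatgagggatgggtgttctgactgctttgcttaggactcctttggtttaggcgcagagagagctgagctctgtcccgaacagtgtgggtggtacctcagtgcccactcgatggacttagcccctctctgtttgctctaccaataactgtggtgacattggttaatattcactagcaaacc
Fabp1, chr6:71199629-71199878, plus strand: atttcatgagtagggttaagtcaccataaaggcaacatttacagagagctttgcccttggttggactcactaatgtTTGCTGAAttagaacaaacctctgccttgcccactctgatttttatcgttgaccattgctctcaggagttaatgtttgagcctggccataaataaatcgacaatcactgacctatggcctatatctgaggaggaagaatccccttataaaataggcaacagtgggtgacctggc
Ahsg, chr16:22891765-22892014, plus strand: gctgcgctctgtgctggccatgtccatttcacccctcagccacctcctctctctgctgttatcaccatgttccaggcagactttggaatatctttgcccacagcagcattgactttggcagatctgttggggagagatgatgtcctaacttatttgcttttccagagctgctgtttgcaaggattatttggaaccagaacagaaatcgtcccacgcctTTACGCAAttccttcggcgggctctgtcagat

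The motif TTGCNNAA was present upstream of 5 of the 7 genes (Alb, Apoa2, Apob, Fabp1 and Ahsg), against 9.56% of all 32851 promoter entries. A match describes the letters only. Apoa2 also had an entry without a match. Of these 5 genes, Alb, Apoa2, Fabp1 and Ahsg had their highest signal on sham replicate 1 and Apob did not, as the values below show. Sham replicate 1 was also highest for 35.4% of all features, and for Ttr, which had no promoter entry. Whether the motif bears on the signal was not tested.

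Signal is given throughout on a log2 scale, after subtraction of each array's own 75th percentile, and a difference is BDL minus sham on that scale. On the 4 arrays, 57.7% to 63.1% of the spots were well above background, 0 were saturated, and the lowest value still well above background lay between -5.33 and -4.70. Precision is limited by having 2 arrays in a group. The tissue label held: all 29 proximal tubule genes on the array were well above background on all 4 arrays. Of 39 hepatocyte enzymes and transporters on the array, 12 were not well above background on any array, among them the defining liver enzymes Arg1 and Otc of the urea cycle, Cyp7a1 and Cyp8b1 of bile acid synthesis, Tdo2 and Cyp1a2. Most of the list went the other way, with 23 or 25 of the 39 well above background on each array. Cps1, Asgr1, Asgr2, Slc10a1 and Cyp2e1 were so on all 4. Over all 24043 features, limma called 0 (0%) at an adjusted p of 0.05 and 1352 (5.62%) at an unadjusted p of 0.05, and the pairwise correlation of the arrays lay between 0.974 and 0.985 (across features, which are not independent replicates).

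Of the 8 retained members, 7 had a lower mean in BDL kidneys and 1, Apoc3, a higher one. The median of the 8 differences was -0.80 (-0.40 without sham replicate 1, and -0.22 there with Ahsg on BDL replicate 2 set to that array's lowest value well above background), against -0.01 over all features, of which 51.4% had a lower mean in BDL. In 3 of the 8 (Ttr, Serpina1a and Apoa2) both BDL arrays lay below both sham arrays, as in 19.2% of all features, and in 0 of the 8 both BDL arrays lay above both sham arrays, as in 17.4% of all features. Over 2-fold lower by group means were Ttr and Ahsg, 2 of the 8, against 2.65% of all features. Ahsg was retained through the sham arrays alone, where it was high, so its place in this count owes something to the filter. Because the members were picked on this contrast, these counts say nothing beyond the members themselves. Over the 13 probes, 4 had groups that did not overlap, against 36.6% of all features in either direction, and in the other 9 the gap between replicates of a group exceeded the difference between the groups. Replicates were over 2-fold apart in 2 of the 8 within BDL and in 3 of the 8 within sham, against 5.7% and 9.93% of all features. In a whole kidney, fewer cells of a type and less RNA per cell cannot be told apart.

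**Figure D1:**
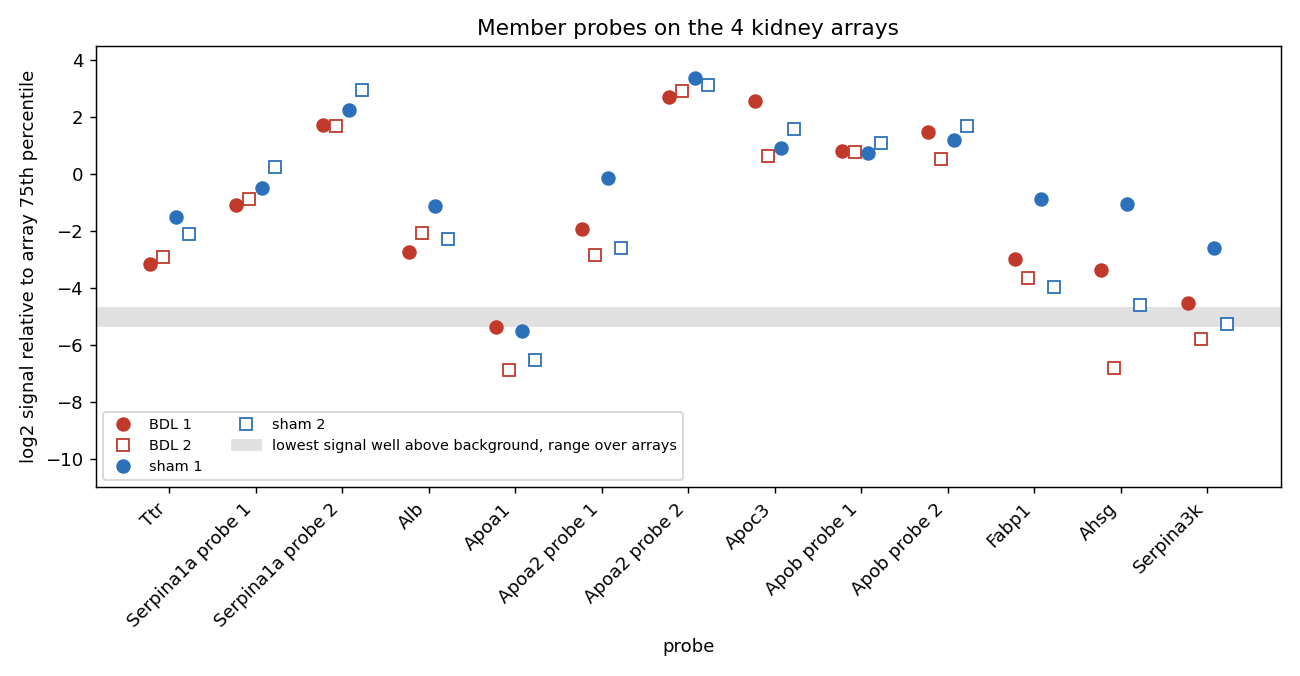
Log2 signal of each of the 13 member probes (x axis) on the 4 arrays, minus the array's 75th percentile (y axis). Red symbols are BDL arrays and blue symbols sham arrays, filled for replicate 1 and open for replicate 2, and the grey band spans -5.33 to -4.70, the lowest values well above background. Ttr and both Serpina1a probes have both red symbols below both blue ones, while sham replicate 1 stands alone at the top for Fabp1, Ahsg, Serpina3k and the first Apoa2 probe.

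The transport proteins come first. Ttr, which carries thyroid hormone and, bound to Rbp4, retinol in plasma, was at -3.16 and -2.92 on the BDL arrays, against -1.51 and -2.11 on the sham arrays. Both BDL values were below both sham values, and the gap between the groups was wider than either gap between replicates. The means were -3.04 ± 0.17 in BDL and -1.81 ± 0.42 in sham kidneys (SD, n = 2 each), a difference of -1.23, or 2.35-fold lower in BDL. Leaving out each array in turn moved it between -1.53 and -0.94, with a sign that groups without overlap fix beforehand. With another background correction (normexp) the difference was -0.89.

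Alb encodes serum albumin, the main protein of plasma. It was at -2.73 and -2.08 in BDL kidneys, against -1.13 and -2.29 in sham kidneys. The groups overlapped, because sham replicate 2 was below BDL replicate 2, and sham replicate 1 alone stood higher. The difference of -0.70 (means -2.41 ± 0.46 in BDL and -1.71 ± 0.82 in sham, SD, n = 2 each) was -0.12 without sham replicate 1, -0.37 without BDL replicate 1 and -1.28 without sham replicate 2. Afp, the fetal albumin relative encoded next to Alb on chromosome 5, was at -3.84 and -3.73 in BDL, against -2.82 and -2.57 in sham kidneys. It was 2.13-fold lower in BDL (-1.09, SE 0.21, limma adjusted p = 0.673), did not pass the threshold, and unlike Alb showed no overlap between the groups.

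Ahsg, the liver glycoprotein fetuin-A, which keeps calcium phosphate from precipitating in blood, varied most among the retained members. It was at -3.35 in BDL replicate 1 and -6.80 in BDL replicate 2, where it was not called well above background, against -1.05 and -4.60 in sham kidneys. Each group thus had 1 array far above the other, by at least 3.94-fold within BDL, where the lower array gives only a bound, and by 11.7-fold within sham. Taken from the signals as measured, the difference was -2.25, with a spread of 2.44 in BDL and 2.51 in sham kidneys (SD, n = 2 each). With BDL replicate 2 set to -5.33, the lowest value well above background on that array, it was -1.52. On that footing it was -0.53 without BDL replicate 2, -2.50 without BDL replicate 1 and -3.29 without sham replicate 2, and it turned to 0.26 without sham replicate 1. The measured signals gave -0.48 without sham replicate 1, so the sign there depended on a value that was not well above background. Fetub, the paralog encoded next to Ahsg on chromosome 16, showed no such range, at -1.21 and -2.05 in BDL, against -1.64 and -2.23 in sham kidneys.

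Among the serine protease inhibitors, Serpina1a encodes an alpha-1-antitrypsin, the plasma inhibitor of neutrophil elastase. Its brighter probe was at 1.72 and 1.69 in BDL kidneys, against 2.26 and 2.97 in sham kidneys. The BDL replicates were nearly equal, and sham replicate 2 was the highest array. The difference was -0.91, or 1.88-fold lower in BDL, with means of 1.70 ± 0.02 in BDL and 2.61 ± 0.50 in sham (SD, n = 2 each). It was -1.27 without the first and -0.56 without the second sham array. The dimmer probe gave -1.07 and -0.88 in BDL, against -0.50 and 0.26 in sham kidneys, a difference of -0.86 with the same order of groups.

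Serpina1a lies on chromosome 12 in a cluster of near-identical copies, whose probes can share targets. Serpina1c was at 1.67 and 1.70 in BDL, against 2.23 and 2.95 in sham kidneys, the same pattern as Serpina1a. After each probe was centred on its own mean, Serpina1c differed from Serpina1a by at most 0.04 on any array, Serpina1e and Serpina1d by at most 0.01 and 0.07, and Serpina1f by at most 0.35. The values of the single copies are therefore uncertain, and the probes of Serpina1a, Serpina1c, Serpina1d and Serpina1e may measure the same transcripts. Serpina1c differed by -0.91 (SE 0.30, limma adjusted p = 0.863) and Serpina1e by -0.90 (SE 0.30, limma adjusted p = 0.870).

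Serpina3k, an antichymotrypsin-type inhibitor known in the rodent as kallikrein-binding protein, was too dim to be retained. It was at -4.53 and -5.78 in BDL kidneys, against -2.59 and -5.25 in sham kidneys, and was well above background on 1 array of each group. Sham replicate 1 was the highest array, at least 5.36-fold above the mean of the remaining ones, of which 2 give only a bound. No group comparison was drawn from it. Its relative Serpina3m had the same top array, at -5.68 and -6.00 in BDL, against -4.07 and -6.49 in sham kidneys, and was well above background on 1 sham array alone. Serpina3n, an acute phase gene of the same cluster, went the other way, with -3.14 and -4.10 in BDL, against -6.43 and -7.34 in sham kidneys. It was well above background on neither sham array and at least 2.51-fold higher in BDL (limma adjusted p = 0.549). Serpina3n was retained through the BDL arrays alone, so its direction followed from the filter. Serpina3a, at -4.05 and -3.32 in BDL against -2.70 and -2.53 in sham, was 2.09-fold lower (-1.07, SE 0.31, limma adjusted p = 0.861). Of the 13 Serpina1 and Serpina3 relatives on the array, 10 were retained, and 0 passed in either direction. At an unadjusted limma p of 0.05, 1 was higher and 4 were lower, against 5.62% of all features in either direction. The lower ones were Serpina3a and Serpina1c, Serpina1d and Serpina1e, and the Serpina1 probes may measure the same transcripts, so they are not separate calls.

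The apolipoproteins split by gene and, for Apoa2, by probe. Apoa2 encodes the second protein of high-density lipoprotein. Its brighter probe was at 2.71 and 2.92 in BDL kidneys, against 3.36 and 3.14 in sham kidneys, without overlap. The difference of -0.44, or 1.35-fold lower in BDL, was larger than the spread within either group (SD 0.15 in each, n = 2). Its dimmer probe was at -1.94 and -2.83 in BDL, against -0.14 and -2.60 in sham kidneys, with sham replicate 1 alone high, 4.99-fold above the mean of the other arrays. The probes of 1 gene thus gave different patterns. Averaging the 2 probes gave a difference of -0.73, and whether they detect the same transcript was not tested.

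Apoa1, which encodes the main protein of high-density lipoprotein, had 10 spots per array of 1 probe. Its mean was -5.37 and -6.87 in BDL kidneys, against -5.51 and -6.54 in sham kidneys. None of its unflagged spots was well above background on any array, so it was not retained. Apoa1 and Apoc3 are direct neighbours on chromosome 9, followed by Apoa4 and Apoa5. Apoc3, which slows the clearance of triglyceride-rich lipoproteins, was clearly measured, at 2.57 and 0.64 in BDL kidneys, against 0.93 and 1.59 in sham kidneys. BDL replicate 1 was highest and BDL replicate 2 lowest, so the groups overlapped completely. The difference of 0.35 turned to -0.62 without BDL replicate 1, and was 1.31 without BDL replicate 2. Apoa4 had the same top and bottom arrays, at -2.27 and -3.92 in BDL, against -3.41 and -2.58 in sham kidneys, while Apoa5 was well above background on 1 BDL array alone.

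BDL replicate 1 also stood apart in markers of fat and urothelium, so their values are given beside Apoc3. Of 12 adipocyte markers, 12 and 5 were well above background on the BDL arrays, against 10 and 9 on the sham arrays. Their summed level, in multiples of the 75th percentile, was 15.1 to 221 in BDL and 16.6 to 30.9 in sham kidneys, and Adipoq was not well above background on BDL replicate 2 or sham replicate 2. Of 10 urothelial markers, 10 and 9 were well above background on the BDL arrays, against 8 and 10 on the sham arrays, and the summed level was 14.1 to 92.6 in BDL, against 19.4 to 23.8 in sham kidneys. The part of these cells in the level of Apoc3 was not tested. Apoc1, another small apolipoprotein, and Rbp4, which fat also secretes, had the same top and bottom arrays as Apoc3. Apoc1 was at 3.24 and 0.05 in BDL, against 1.77 and 1.67 in sham kidneys, and Rbp4 at 0.82 and -3.78 in BDL, against -1.87 and -2.03 in sham kidneys.

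Apob encodes the large structural protein of chylomicrons and very-low-density lipoprotein. Its brighter probe was at 1.48 and 0.54 in BDL kidneys, against 1.20 and 1.70 in sham kidneys, a difference of -0.44 with overlapping groups. The other probe was at 0.82 and 0.78 in BDL, against 0.73 and 1.09 in sham kidneys, a difference of -0.11. The brighter probe's difference was 0.03 without BDL replicate 2, -0.20 without sham replicate 2, -0.69 without sham replicate 1 and -0.91 without BDL replicate 1. Neither probe therefore set the groups apart by more than the spread between replicates.

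Fabp1, the liver-type fatty acid binding protein, was at -2.98 and -3.64 in BDL kidneys, against -0.86 and -3.96 in sham kidneys. Both extremes were sham arrays, 8.60-fold apart. The difference was -0.90 (means -3.31 ± 0.46 in BDL and -2.41 ± 2.20 in sham, SD, n = 2 each). Without sham replicate 1 it turned to 0.65, with both BDL arrays above the remaining sham array. It was -0.57 without BDL replicate 2 and -2.45 without sham replicate 2. The direction for Fabp1 thus rested on 1 sham array.

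**Figure D2:**
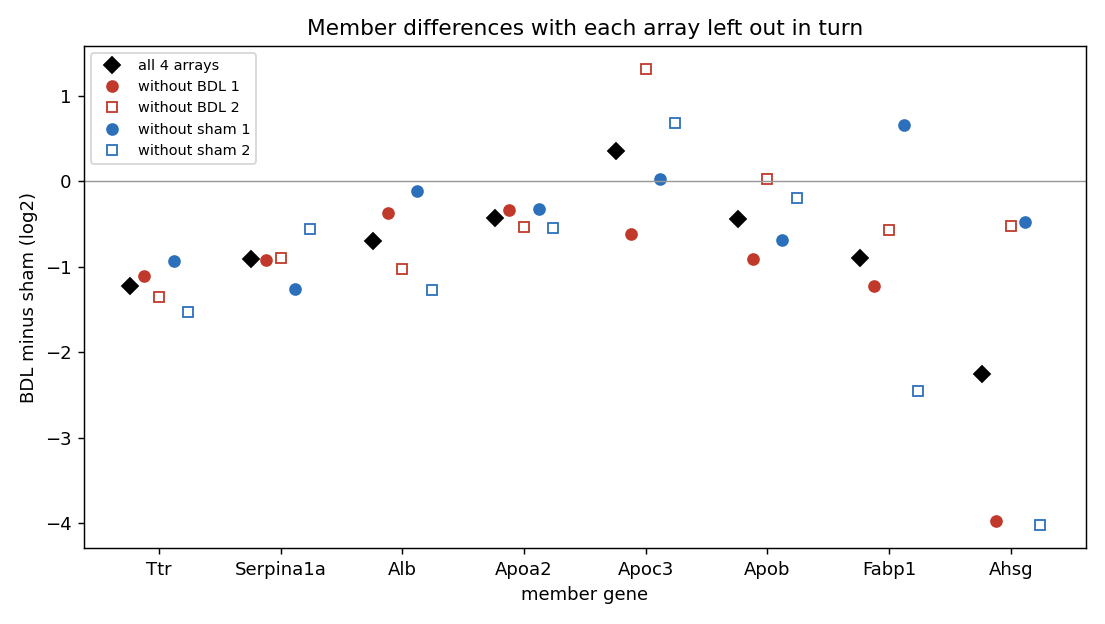
Difference between BDL and sham means (y axis, log2) for the 8 retained members (x axis), from all 4 arrays (black diamonds) and with each array left out in turn (red, a BDL array removed, and blue, a sham array removed; filled for replicate 1, open for replicate 2). Apoc3 turns to -0.62, Apob to 0.03 and Fabp1 to 0.65 in 1 case each. Ttr, Serpina1a and Apoa2, whose groups do not overlap, cannot cross 0, Alb comes as near as -0.12, and Ahsg is drawn from the measured signals, with BDL replicate 2 not well above background.

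Sham replicate 1 was the highest array for 5 of the 8 retained members (Ttr, Alb, Apoa2, Fabp1 and Ahsg), as for 35.4% of all features. In 4 of the 8 (Ttr, Alb, Fabp1 and Ahsg) it stood over 2-fold above the mean of the other 3 arrays, as in 3.69% of all features. The fold was at least 10.4 for Ahsg, 6.37 for Fabp1, 2.36 for Alb and 2.33 for Ttr. It was 1.1 for Serpina1a, 0.977 for Apob and 0.629 for Apoc3.

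The same measure was taken for other liver products. For it, a signal not well above background was set to the higher of its own value and the lowest value well above background on its array, so folds that rest on such arrays are bounds, and a gene counted for an array only where it was well above background there. Over all 37064 features on the array, 0.796% were over 4-fold higher on sham replicate 1 than the mean of the remaining arrays. Of the 10 members 3 were (Ahsg, Fabp1 and Serpina3k), and of the 7 major urinary protein genes, which encode pheromone carriers secreted by liver in large amounts, 6 were. Their probes can share targets, since the genes are close copies. Genes named in this paragraph and the next were picked after their values were seen. Mup4 was at -1.83 and -3.50 in BDL kidneys, against 1.55 and -2.32 in sham kidneys, and sham replicate 1 stood 17.1-fold above the mean of the other arrays. Mup20 was at -3.76 and -6.92 in BDL, against -0.39 and -5.27 in sham kidneys, at least 20.7-fold higher on sham replicate 1. Mup2 was 6.75-fold higher there, and Mup3, Mup5 and Mup21 at least 8.83-fold, 9.64-fold and 5.18-fold.

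Among the 59 other secreted proteins of hepatocytes on the array, more than 1 array stood high. Over 4-fold above the mean of the other arrays were 4 genes on BDL replicate 1, 3 on sham replicate 1 and 1 on sham replicate 2. On BDL replicate 1 these were Rbp4, Serpinc1, Apoc1 and Pon1, on sham replicate 1 Apoh, Cpb2 and Mug2, and on sham replicate 2 Cpb2. Over 2-fold were 12 and 1 on BDL replicates 1 and 2, against 2.24% and 1.14% of all features. On sham replicates 1 and 2 there were 7 and 5, against 2.92% and 2.11% of all features. Apoh, which binds phospholipid on lipoproteins, was at 0.18 and 0.76 in BDL, against 3.33 and 1.48 in sham kidneys. Cpb2, a carboxypeptidase that slows fibrinolysis, was at 2.33 and -1.82 in BDL, against 3.89 and 3.74 in sham kidneys, so that both sham arrays were high.

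Of the 39 hepatocyte enzymes and transporters, 1 was over 2-fold higher on sham replicate 1, the liver uptake carrier Slco1b2, at -5.55 and -5.26 in BDL, against -2.72 and -6.52 in sham kidneys (at least 5.29-fold). From the signals as measured, well above background or not, 5 of the 39 and 10 of the 59 secreted proteins were over 2-fold higher there. The share was 3.69% among the 24043 retained features. Of the 5, Baat, Mat1a, Otc and Cyp2c50 were well above background on no array. Hamp, among the 10, was not well above background on sham replicate 1. The difference between the hepatocyte and secreted lists was not tested. On BDL replicates 1 and 2, 23 and 25 of the 39 were well above background, against 23 and 25 on sham replicates 1 and 2. The summed level of the list was 733 to 923 in BDL and 874 to 962 in sham kidneys. Slc10a1 and Cyp2e1 made up 86.4% to 90.3% of that sum, and without them it was 99.5 to 110.0 in BDL and 84.8 to 103.0 in sham kidneys. The part of any liver RNA in the values of sham replicate 1 was not tested.

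**Figure D3:**
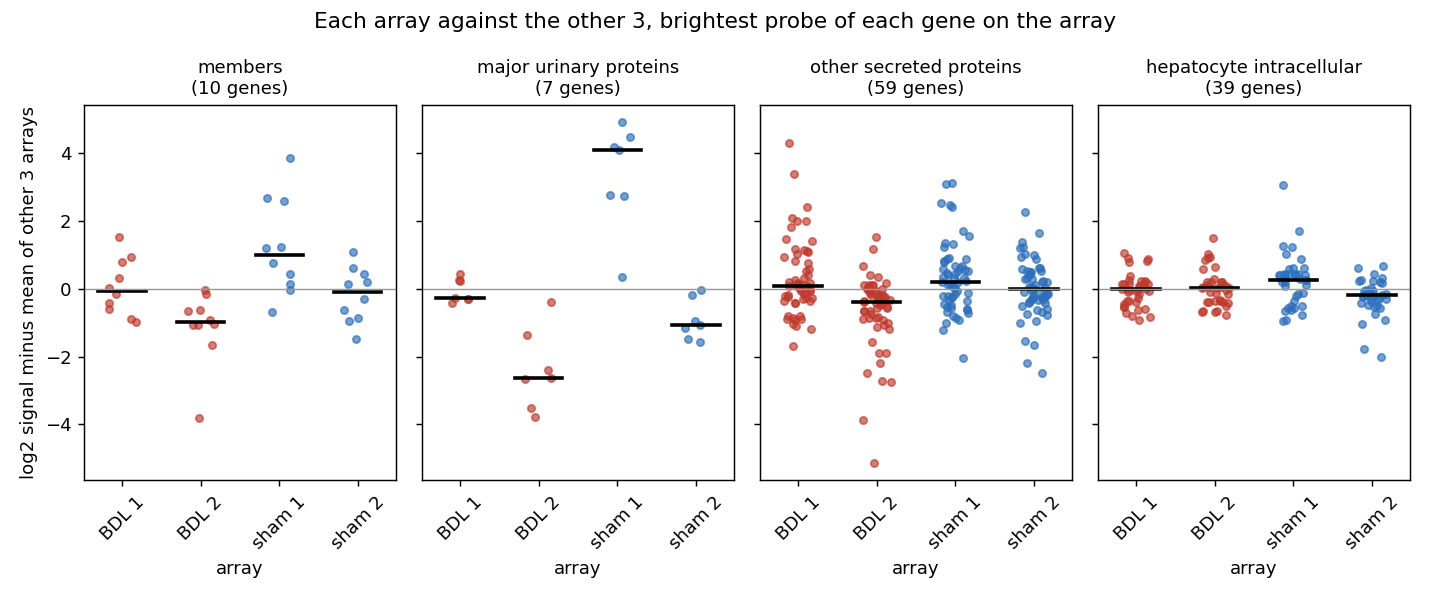
Log2 signal of each gene on 1 array minus its mean on the other 3 (y axis), for each array (x axis) and for 4 gene lists, with every gene on the array shown by its brightest probe at its measured signal, well above background or not. Points are genes, red for BDL and blue for sham arrays, and black bars are medians, which for sham replicate 1 are 0.99 for the 10 members, 4.10 for the 7 major urinary proteins, 0.22 for the 59 other secreted proteins and 0.27 for the 39 hepatocyte enzymes and transporters.

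The wider lists were compared with limma across all 24043 features, with Benjamini-Hochberg adjusted p. Their counts at an unadjusted p of 0.05, here and in the lists below, stand against 5.62% of all features in either direction. Of the 43 retained other secreted proteins, 17 had a higher and 26 a lower mean in BDL, with a median difference of -0.15, and 0 passed in either direction (3 higher and 7 lower at an unadjusted p of 0.05). Without single arrays that median ranged from -0.31 to -0.06. Cpn1, the catalytic subunit of carboxypeptidase N, was well above background on neither sham array and at least 3.28-fold higher in BDL (limma adjusted p = 0.549), with -3.14 and -3.09 in BDL, against -5.77 and -4.96 in sham kidneys. Igfbp1, a hepatic binding protein of insulin-like growth factors, was at -0.14 and 0.05 in BDL, against 1.68 and 1.14 in sham kidneys (-1.46, SE 0.26, limma adjusted p = 0.654). Vtn, which encodes vitronectin, was at -5.08 and -5.06 in BDL, where 1 of the 2 arrays was well above background, against -3.94 and -3.49 in sham kidneys (-1.35, SE 0.24, limma adjusted p = 0.631). In all 3 genes the groups were apart, and the differences exceeded the gap between replicates. Naming genes by the smallest p favours both, so this is no separate support. Cpn1 was retained through the BDL arrays alone and Vtn through the sham arrays alone, so their directions owe something to the filter.

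The major urinary proteins had 3 retained genes, all lower in BDL, and 0 past the threshold, adjusted or not. Their median of -2.04 was the measured difference of Mup21, which was retained through the sham arrays alone. Mup21 was well above background on neither BDL array, so its direction followed from the filter. It was at least 2.80-fold lower in BDL (limma adjusted p = 0.872). Mup4 differed by -2.28 (SE 1.41) and Mup2 by -1.21 (SE 1.02), both at a limma adjusted p of at least 0.872, and both with 1 high array, sham replicate 1.

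Liver-enriched transcription factors had 20 retained genes, 14 higher and 6 lower in BDL, with a median of 0.20 and 0 past the threshold in either direction (2 higher and 1 lower unadjusted). Hnf4a, a nuclear receptor that drives many hepatocyte genes, was at 7.38 and 7.01 in BDL, against 7.26 and 7.17 in sham kidneys. Creb3l3, a membrane-bound factor that controls apolipoprotein genes in liver, was at -2.86 and -3.14 in BDL, against -4.94 and -4.69 in sham kidneys (1.81, SE 0.22, limma adjusted p = 0.414). Of the 2 sham arrays 1 was well above background. Creb3l3 was thus retained through the BDL arrays alone, so its direction owes something to the filter. Dbp, a circadian factor that binds the Alb promoter, was at 4.59 and 5.35 in BDL, against 6.43 and 6.26 in sham kidneys (-1.37, SE 0.32, limma adjusted p = 0.759). Nr1i2, the pregnane X receptor, was at -0.82 and -1.34 in BDL, against -2.64 and -2.08 in sham kidneys (1.28, SE 0.31, limma adjusted p = 0.762). Hnf4g differed by 0.57 (SE 0.24, limma adjusted p = 0.872). Without sham replicate 1 the list's median was 0.07.

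Genes for lipoprotein assembly, remodelling and fatty acid binding had 29 retained members, 15 higher and 14 lower in BDL, with a median of 0.001 and 0 past the threshold in either direction (3 higher and 0 lower unadjusted). Angptl4, an inhibitor of lipoprotein lipase, was at 4.57 and 5.22 in BDL, against 3.48 and 4.05 in sham kidneys (1.13, SE 0.34, limma adjusted p = 0.861). The acyl-CoA synthetase gene Acsl1 was at 5.41 and 5.17 in BDL, against 4.13 and 4.83 in sham kidneys (0.81, SE 0.31, limma adjusted p = 0.872). Neither gene overlapped between the groups.

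Hepatocyte enzymes and transporters had 23 retained genes, 13 higher and 10 lower in BDL, with a median of 0.10 and 0 past the threshold, adjusted or not. Cyp4a14 differed by 0.83 (SE 0.31), Hpd by 0.68 (SE 0.28) and Bhmt by 0.77 (SE 0.32), and Hal was at least 1.28-fold higher in BDL, each at a limma adjusted p of at least 0.872. Hal was well above background on neither sham array and was retained through the BDL arrays alone, so its direction followed from the filter. The median was -0.12 without sham replicate 2. Proximal tubule genes had 29 retained members, 11 higher and 18 lower, with a median of -0.13 and 0 past the threshold (3 higher and 2 lower unadjusted). Slc13a1, the sodium sulfate carrier, differed by 1.32 (SE 0.28), Slc5a12 by 0.75 (SE 0.19), Slc22a8 by 0.80 (SE 0.22) and Keg1 by -0.83 (SE 0.21), each at a limma adjusted p of at least 0.759. This median was 0.02 without sham replicate 1.

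Receptors that retrieve filtered plasma proteins were well above background on all arrays in 10 of 10 genes, 8 higher and 2 lower in BDL, with a median of 0.11 and 0 past the threshold, adjusted or not. Cubn, which binds albumin and Apoa1 protein, was at 6.50 and 6.42 in BDL, against 6.16 and 6.02 in sham kidneys (0.38, SE 0.19, limma adjusted p = 0.872). Fcgrt, which recycles albumin, differed by 0.76 (SE 0.46), with sham replicate 2 alone low, Dab2 by 0.25 (SE 0.19) and Lrpap1 by -0.30 (SE 0.31). Acute phase proteins of the liver had 13 retained genes, 11 higher and 2 lower in BDL, with a median of 1.13 and 0 past the threshold (3 higher and 1 lower unadjusted). Saa4, a serum amyloid that liver makes at all times, was 1 of the 2 lower ones, at -4.82 and -4.96 in BDL, against -4.24 and -4.07 in sham kidneys (-0.74, SE 0.20, limma adjusted p = 0.812). Saa3, a serum amyloid that also arises outside the liver, was at -3.99 and -3.40 in BDL, against -6.74 and -7.16 in sham kidneys. Neither sham value was well above background, and Saa3 was at least 2.38-fold higher in BDL (limma adjusted p = 0.254). It was retained through the BDL arrays alone, so its direction followed from the filter. Lrg1, a leucine-rich plasma glycoprotein gene, was at 2.28 and 1.89 in BDL, against 0.86 and 0.19 in sham kidneys (1.56, SE 0.32, limma adjusted p = 0.720). C3, the central complement component, had its top array in BDL replicate 1, with 4.95 and 3.26 in BDL, against 2.69 and 1.55 in sham kidneys (1.99, SE 0.70, limma adjusted p = 0.872). The summed level of the list was 53.0 and 21.8 in BDL, against 13.6 and 7.44 in sham kidneys, and its top array was also that of the fat markers, whose part was not tested.

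**Figure D4:**
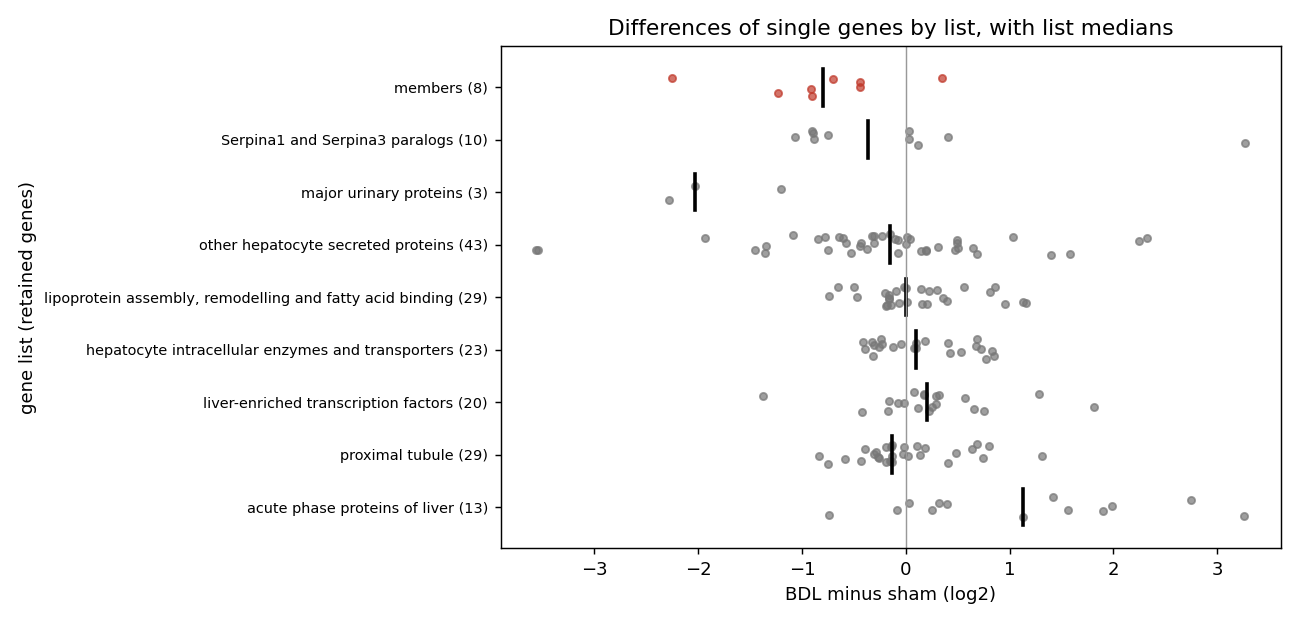
Difference between BDL and sham means of each retained gene (x axis, log2) by gene list (y axis, number of genes in parentheses), with black bars at the list medians. The members (red) have a median of -0.80, the major urinary proteins -2.04 and the acute phase proteins 1.13, while the other lists lie between -0.36 and 0.20. The -2.04 is the measured difference of Mup21, which was not well above background in BDL.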

How the data were processed

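RNA of 2 BDL and 2 sham kidney samples was labelled with Cy3 and hybridised to 1-colour arrays, 1 sample per array, per the labels' protocols. The submitters' processing notes name Agilent Feature Extraction 11.0.1.1. Its processed signal, as deposited, is a linear intensity that was background-subtracted and spatially detrended within each array, per the file headers. The authors' deposited value table, an alternative here, holds the same intensities divided by 1 constant per array, with column medians of 0.329 and 0.33 for BDL and 0.328 and 0.339 for sham. Its scale is linear and uncentred, and what the constants were set on is unknown. Quality flags and control types, per the file headers, served as filters. The 4 arrays shared a slide and a scan time.

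The log2 processed signal minus the array's 75th percentile was used. Control spots and outlier-flagged spots were left out, spots of a probe were averaged, and 13 of 55681 probes without an unflagged spot on every array were dropped. Genes were named by unversioned accession from RefSeq (GRCm38.p6, names and neighbours only, as the array grid lists mm9), for 27229 probes. Retained were the 32280 probes called well above background on both BDL arrays, both sham arrays or all 4, and the brightest retained probe stood for a gene (24043 features). The groups were tested in limma 3.58.1 (R 4.3.3, lmFit and eBayes, two-sided) and Benjamini-Hochberg adjustment over all features. An exact permutation test of 2 against 2 cannot go below 0.333 and was not used. Bounds ("at least") set the brighter group's mean, or 1 array's value, against the higher, per array, of the probe's own value and the lowest value well above background.

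The members and gene lists were chosen with earlier results of these data known. Alternatives were normexp, quantile normalization, the authors' table, other dim-probe filters, all probes per gene, the replicate block and each array left out. Named are all members, up to 4 genes per list with the smallest p, defining markers, and the genes whose 4 values lie nearest to the members' median profile, while genes named outside this rule are marked or stand as neighbours, paralogs or transcription factors of members. Not every gene that this rule takes is reported here.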

Additional observations from a re-analysis of the deposited data

How the results depend on the processing

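With 0 features past an adjusted p of 0.05 under limma (1352 at an unadjusted p of 0.05), the count stayed 0 under the 11 alternatives run (the unadjusted count was added after seeing the data), with unadjusted counts from 844 without BDL replicate 1 to 2793 without sham replicate 2. With each array left out in turn, the members' median ranged from -0.918 to -0.404. The number of members below in BDL without overlap ranged from 4 to 6 (3 on all arrays), and the number above from 0 to 1 (0 on all arrays). Such counts can only stay or rise when an array is left out, so the rise shows no added strength. Their shares over all features were not computed there. The medians ranged from -0.115 to 0.182 for hepatocyte enzymes and transporters and from 0.066 to 0.327 for transcription factors. They ranged from 0.031 to 0.178 for lipoprotein genes and from -0.212 to 0.021 for proximal tubule genes. The hepatocyte median was 0.005 with normexp, run on the median spot signal, and -0.132 with no filter on dim probes, where more genes were counted, and the proximal tubule median was -0.002 with quantile normalization. The cause of these shifts was not tested. The members' median stayed below 0 in all 11 alternatives, but these reuse the arrays on whose differences the members were picked, so its sign is no independent support. With values not well above background set to the array's floor, chosen after seeing the data, that median was -0.799, and -0.918 to -0.224 with each array left out, while the Ahsg difference was -1.52, and 0.258 without sham replicate 1.

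No large effect shared by replicate number was seen: the difference between BDL replicates correlated with that between sham replicates at 0.063 across features. This correlation cannot tell whether the samples were paired in handling. With the replicate block 0 features passed the adjusted threshold, 1448 an unadjusted p of 0.05. All arrays shared 1 slide and 1 scan, which left no such block to fit. Signal over background limited Apoa1 and Serpina3k, and Ahsg on BDL replicate 2.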

Other observations

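The features whose 4 values lay nearest to the members' median profile (-0.22 and -0.59 on the BDL arrays, against 0.62 and 0.13 on the sham arrays, each around the mean of the 4) were Cenpl, Smc5, Mrnip, Ttc16, Vangl2 and Adrm1. Likeness was the Euclidean distance over the 4 arrays, which ran from 0.0533 for Cenpl to 0.113 for Adrm1. Cenpl, a centromere protein gene, was at -0.72 and -1.06 in BDL kidneys, against 0.19 and -0.35 in sham kidneys. Smc5, which encodes a subunit of a DNA repair complex, was at 1.36 and 1.04 in BDL, against 2.17 and 1.67 in sham kidneys.

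Pancreatic acinar and enterocyte markers were checked because both tissues make secreted proteins or apolipoproteins. Of 17 acinar markers, 8 were not well above background on any array, and of 14 enterocyte markers 5 were not. The summed acinar level was 1.40 to 1.56 in BDL and 1.60 to 1.66 in sham kidneys. The summed enterocyte level was 107 and 132 in BDL, against 221 and 120 in sham kidneys. Most of that sum came from Anpep, Treh and Vil1, which the proximal tubule also expresses, and its part in the members' values was not tested. Of the 8 retained markers, 5 were highest on sham replicate 1, as were 35.4% of all features. There 1 of the 8 stood over 2-fold above the mean of the other arrays, against 3.69% of all features.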
